A study of Mus musculus with 4 samples.

Results

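The mitochondrial ribosomal protein genes were followed in RNA from sorted retinal microglia. They were taken by symbol, as every gene whose name starts with Mrpl or Mrps and a digit, with pseudogenes left out, which gave 78 of the 15586 genes in the table. By the structure of the mammalian mitochondrial ribosome, 51 of the 78 encode large subunit proteins and 26 encode small subunit proteins. Mrps30 and Mrps18a are named for the small subunit but sit in the large one, and are counted there. The remaining gene, Mrps36, carries a ribosomal name but encodes a component of the 2-oxoglutarate dehydrogenase complex, and was kept because the choice was by name.

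Microglia are the resident immune cells of the retina. The mice were 2 months old, and all carried 1 Cx3cr1 allele that drives a tamoxifen-inducible Cre together with floxed alleles of the gene for the kinase TAK1. The 2 control libraries came from Cx3cr1CreER/+;Tak1fl/fl mice given corn oil for 5 days by intraperitoneal injection. The 2 knockout libraries came from mice given tamoxifen at 75 mg/kg for 5 days, whose genotype label reads Cx3cr1CreER/+;Tak3fl/fl where the treatment protocol reads Tak1. Cells were sorted on EYFP, 200 per library. Only the knockout group received tamoxifen, so deletion and drug cannot be told apart. Cx3cr1 is also active in monocytes and other macrophages. No label ties the libraries to separate animals, so p-values cover no more than the spread between these samples, and this spread may be technical.

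Mitochondria keep their own ribosome, which translates the few membrane proteins of the respiratory chain that mitochondrial DNA encodes. Its RNA comes from mitochondrial DNA, but all of its proteins are encoded in the nucleus, made in the cytosol and imported. Many of these proteins have a counterpart in bacterial ribosomes, and the others were gained in the mitochondrial lineage. Most of the proteins are needed in about equal number in a finished ribosome, and the genes are counted among those used by nearly every cell.

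Values were FPKM, fragments scaled to transcript length and library size, so that levels can be compared between genes. Read depth was unknown. Map3k7, the gene for TAK1, read 0.03 and 0 FPKM in controls against 0.02 and 0.08 in knockouts, and so could not check the labels. All 13 microglia markers were at 1 FPKM or more in control 2 and both knockouts and 12 were in control 1. Their summed level was 13285 FPKM for control 1, 13881 for control 2, 38177 for knockout 1 and 24387 for knockout 2. Where 4 values stand in a row below, they follow this order. The 13 rod markers were also present, with summed FPKM of 2223 and 3299 in controls against 6241 and 9225 in knockouts. The 6 monocyte markers in the table summed to 405 and 442 FPKM against 52.1 and 120. The 7 bipolar cell markers summed to 3.34 and 113 FPKM against 686 and 582, and the 6 Müller glia markers to 225 and 321 against 966 and 687. The part of RNA from these 4 cell types in the values below was not tested, and in bulk RNA fewer cells of a type and less RNA per cell cannot be told apart.

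The sequences of the promoters are shown first, because the mitochondrial ribosome is assembled from genes on 17 chromosomes and shared promoter sequence is one feature that the choice by name did not use. NRF1, GABP (a member of the ETS family) and YY1 are transcription factors known for activating nuclear genes of mitochondria. RefSeq windows of 300 bases, from 250 before the annotated start to 50 after it, were held for 69 of the 78 genes (GRCm38.p6). The NRF1 motif GCGCATGCG was found on either strand in 7 of the 69 (10.1%), against 3.36% of the 12309 genes of the deposited table with a window and 1.95% of all 27025 genes with one. With both middle bases free (GCGCNNGCG, which includes the first motif), 21 matched (30.4%, against 23.4% and 13.5%). The ETS motif CCGGAAGT matched in 12 (17.4%, against 7.39% and 4.31%) and the YY1 motif AAGATGGCG in 8 (11.6%, against 2.88% and 1.64%). These shares describe letters in a window, and do not show that a factor binds there.

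The stretches printed here, chosen after values and matches were seen, are the 150 bases before the annotated start used for the windows of 4 genes. They run 5′ to 3′ on the gene's own strand, with matches to the NRF1 or ETS motif on either strand in capitals, and overlapping matches joined. Mrpl39 (chr16:84735245-84735394, minus strand) and Mrpl10 (chr11:97041432-97041581, plus strand) hold the NRF1 motif and read under 1 FPKM in both controls and above it in both knockouts. Mrpl32 (chr13:14613038-14613187, minus strand) holds it too, but read lower in both knockouts than in both controls. Mrpl27 (chr11:94653641-94653790, plus strand) holds the ETS motif and was high in every library. Its RefSeq gene span begins at 94653770, so the last bases of its stretch lie inside the gene.

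Mrpl39: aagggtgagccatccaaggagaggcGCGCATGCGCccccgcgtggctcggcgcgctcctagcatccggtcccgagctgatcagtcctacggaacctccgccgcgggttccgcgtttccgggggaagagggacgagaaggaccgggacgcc

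Mrpl10: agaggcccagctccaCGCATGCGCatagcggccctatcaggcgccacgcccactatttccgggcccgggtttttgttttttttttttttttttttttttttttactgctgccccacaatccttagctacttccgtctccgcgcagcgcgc

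Mrpl32: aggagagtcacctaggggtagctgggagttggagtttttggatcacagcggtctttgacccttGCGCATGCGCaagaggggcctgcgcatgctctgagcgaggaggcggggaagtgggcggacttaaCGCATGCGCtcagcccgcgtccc

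Mrpl27: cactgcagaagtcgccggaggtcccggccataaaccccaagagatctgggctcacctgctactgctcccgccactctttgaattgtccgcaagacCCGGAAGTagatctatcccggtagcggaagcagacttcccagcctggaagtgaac

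More mitochondrial ribosomal protein genes were detected in the knockout libraries than in the controls. At 1 FPKM or more there were 54 and 41 of the 78 in control 1 and 2, and 66 and 64 in knockout 1 and 2. The groups did not overlap, and control 2 stood lowest. The mean was 47.5 ± 9.19 genes (SD, n = 2) for the controls, against 65.0 ± 1.41 (SD, n = 2) for the knockouts. The exact two-sided permutation test gave p = 0.333, which is the smallest that 2 libraries against 2 can give.

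The same order held in the whole table. Of all 15586 genes, 28.8% and 24.2% were at 1 FPKM or more in controls against 38.8% and 36.1% in knockouts. The 78 genes therefore made up a similar share of all detected genes in each library, 1.21% and 1.09% in controls against 1.09% and 1.14% in knockouts, without an order by group. When the libraries were given the same distribution of values by quantile normalization, 68 and 63 of the 78 were at 1 FPKM or more in controls against 64 and 63 in knockouts. Both knockouts had more of the 78 genes than both controls at each level tried from 0.1 to 20 FPKM as deposited, but at 100 FPKM or more there were 27 and 27 genes in controls against 30 and 27 in knockouts.

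**Figure D1:**
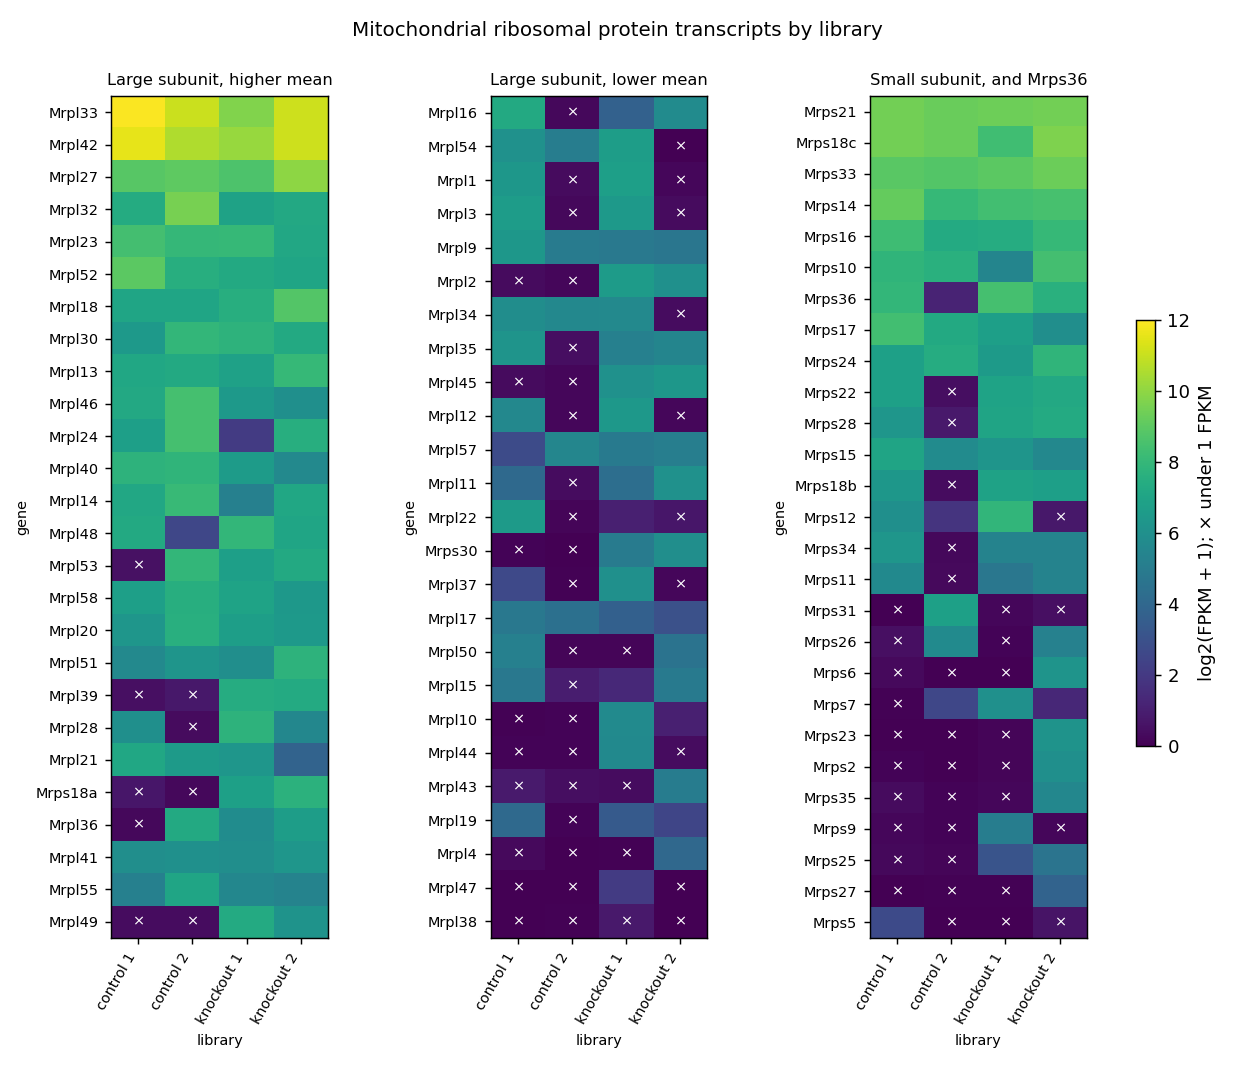
Level of each of the 78 genes in each library, as log2(FPKM + 1) on the colour scale, with large subunit genes in the left and middle panels and small subunit genes and Mrps36 in the right panel, each ordered by mean FPKM; a cross marks a value under 1 FPKM. Crosses are most frequent in control 2 (37 of 78) and least frequent in knockout 1 (12 of 78).

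Single genes tended to read either near 0 or at 20 FPKM and more, with little between. Of the 312 values of these genes (78 in each of 4 libraries), 87 were under 1 FPKM, 25 were from 1 to under 20 and 200 were at 20 or more. Over all genes 68.0% of values were under 1 FPKM, 13.3% from 1 to under 20 and 18.7% at 20 or more. Only 15 of the 87 low values were exactly 0.

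A value under 1 FPKM is listed here as such and says nothing of whether the gene was silent. Tufm, the elongation factor of mitochondrial translation, read 30.6, 0, 0.41 and 0.15 FPKM, although translation in mitochondria depends on it. Of the 78 genes, 77 were at 1 FPKM or more in at least 1 library. Mrpl38, a large subunit protein of the mitochondrial lineage, was the exception, at 0, 0.05, 0.76 and 0 FPKM, where 43.9% of all genes were under 1 FPKM in all 4 libraries.

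The pattern of detection over the 4 libraries was counted for every gene. In all 4 libraries, 33 of the 78 genes were at 1 FPKM or more (42.3%, against 13.2% of all genes). Another 11 were under 1 FPKM in control 2 alone (14.1%, against 4.45% of all genes). In both knockouts and neither control there were 8 genes (10.3%, against 5.04% of all genes), and in both controls and neither knockout there were 0 (against 0.898%). Single-library detection was seen for 12 genes, of which 7 were in knockout 2, 3 in knockout 1 and 1 in each control. For knockout 2 this was 8.97%, against 6.56% of all genes, and for knockout 1 it was 3.85%, against 8.16%. For each control it was 1.28%, against 3.25% of all genes in control 1 and 2.3% in control 2. The other 13 genes were at 1 FPKM or more in 2 or 3 libraries in other combinations. Of them, 5 were in control 1 and knockout 1 alone (6.41%, against 2.44% of all genes). Each share of all genes given here is lowered by the 43.9% that were under 1 FPKM in all 4 libraries. Of the 78 genes this was 1.28%, so a share above that of all genes is not by itself a trait of the 78.

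Proteins with a bacterial counterpart and proteins of the mitochondrial lineage were set side by side. Of the 46 genes with a bacterial counterpart, 37 and 26 were detected in controls against 42 and 37 in knockouts. Of the 31 genes of the mitochondrial lineage, 16 and 14 were detected in controls against 23 and 26 in knockouts. The second class therefore had the lower share detected in control 1 (51.6% against 80.4%), in control 2 (45.2% against 56.5%) and in knockout 1 (74.2% against 91.3%), but not in knockout 2 (83.9% against 80.4%). By subunit, 37 and 27 of the 51 large subunit genes were detected in controls against 47 and 41 in knockouts. For the 26 small subunit genes the counts were 16 and 13 against 18 and 22. In both subunits each knockout exceeded each control.

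Detection also followed the length of the coding sequence, which ranged from 261 bases in Mrps21 to 1326 bases in Mrps30. The median coding length was 447 bases for the 33 genes detected in all 4 libraries, 576 for the 17 in 3 libraries, 786 for the 15 in 2 and 921 for the 12 in 1. Across the 78 genes Spearman's rho between coding length and mean FPKM was -0.536, a description over genes that share libraries. Across the 7597 tested genes with a coding length rho was -0.485, so shorter genes also read higher in the table at large. With the number of libraries detected, rho was -0.554 for the 78 genes and -0.24 for the tested genes. The transcript lengths behind the authors' FPKM were not given in the sources used here.

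The 39 genes with the shortest coding sequences (up to 576 bases) were detected in numbers of 32 and 29 in controls against 35 and 36 in knockouts. For the 39 longer genes the numbers were 22 and 12 against 31 and 28. The gap between groups was wider among the longer genes, by counts and without a test. Over the whole table, genes with a coding length up to 576 bases were detected at 52.6% and 47.6% in controls against 63.6% and 59.0% in knockouts, and longer genes at 26.6% and 22% against 37.1% and 34.4%.

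**Figure D2:**
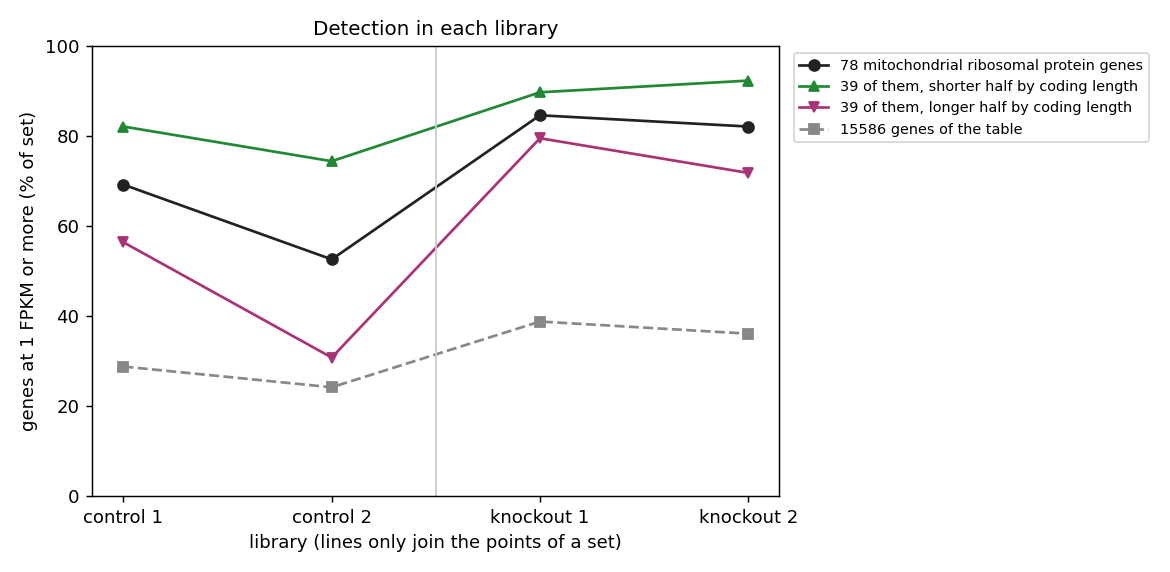
Share of genes at 1 FPKM or more in each library, in percent of each set, for the 78 genes, for the 39 with shorter and the 39 with longer coding sequences, and for all 15586 genes; lines only join the points of a set. Every set stands higher in both knockouts than in both controls, and the longer genes in control 2 are lowest among the 3 sets of mitochondrial ribosomal protein genes, at 30.8%.

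**Figure D3:**
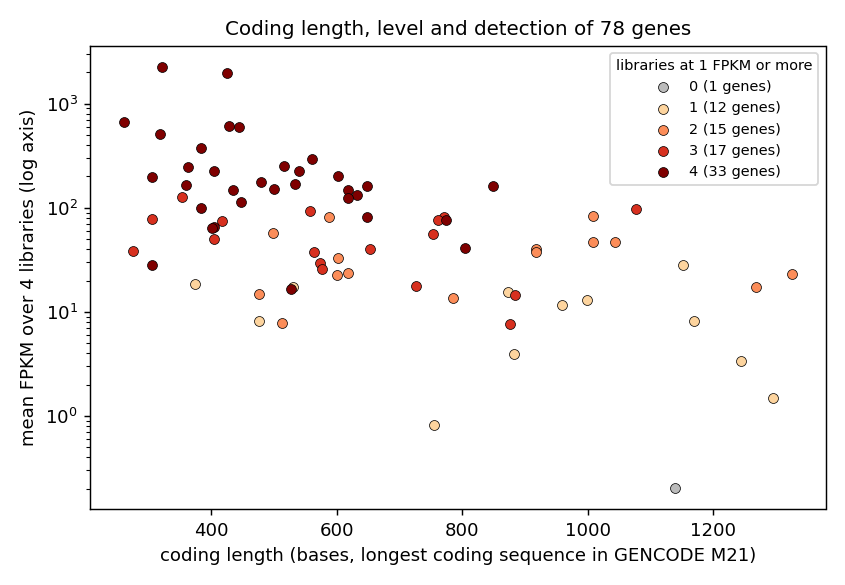
Coding length in bases (longest coding sequence in GENCODE M21) against mean FPKM over the 4 libraries on a log axis, 1 point per gene, coloured by the number of libraries at 1 FPKM or more. The 33 genes detected in every library gather at short lengths (median 447 bases) and high levels.

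The summed level of the 78 genes did not follow the groups. It was 15185 and 11237 FPKM in controls against 9578 and 13460 in knockouts, or 1.57% and 1.30% of all FPKM against 1.16% and 1.66% (exact two-sided permutation p = 1). By share of FPKM both knockouts lay outside the range of the controls, 1 on each side. Mrpl33 and Mrpl42 alone held 45.4%, 32.5%, 20.8% and 32.2% of the sum. Without both, the other 76 genes held 0.855% and 0.879% of all FPKM in controls against 0.921% and 1.12% in knockouts (exact two-sided permutation p = 0.333, the smallest possible).

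Mrpl33 (chromosome 5, 31613951 to 31622644, GRCm38.p6), a small large-subunit protein with a bacterial counterpart, read 3863 and 2129 FPKM in controls against 856 and 2159 in knockouts. Mrpl42 (chromosome 10, 95480805 to 95501949), a large subunit protein of the mitochondrial lineage, read 3036 and 1519 FPKM against 1137 and 2174. In both genes control 1 was highest and knockout 1 lowest, and the groups overlapped. On log2(FPKM + 1), the knockout mean minus the control mean was -1.08 ± 0.53 (SE) for Mrpl33 and -0.45 ± 0.48 for Mrpl42 (limma adjusted p = 0.698 for both). Without control 1 or without knockout 1 the value for Mrpl42 was just above 0. For Mrpl33 it was -0.65 without control 1, -0.41 without knockout 1 and -1.74 without knockout 2, and -1.96 after median ratio scaling.

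The other 8 of the 10 genes with the highest means were Mrps21, Mrps18c, Mrpl27, Mrps33, Mrps14, Mrpl32, Mrpl23 and Mrpl52. Mrpl27, which in bacteria reaches toward the site of peptide bond formation, read 471 and 516 FPKM in controls against 398 and 983 in knockouts. Mrpl23, a protein at the exit tunnel, read 339 and 258 FPKM against 265 and 146. In both the knockouts lay on either side of a control value, so neither gene had an order by group.

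The 5 genes with the smallest range on the log2 scale, among those detected in every library, were Mrps21, Mrpl41, Mrps33, Mrps16 and Mrps14. Mrps21, of the small subunit, read 689 and 606 FPKM in controls against 658 and 698 in knockouts, a difference of 0.07 ± 0.44 log2 units (SE; limma adjusted p = 0.961). Mrpl41, of the large subunit, read 59.1 and 64.5 FPKM against 60.5 and 79.2. Mrps33 read 483 and 444 FPKM against 509 and 628, with both knockouts above both controls. Mrps16 read 306 and 158 FPKM against 171 and 260, and Mrps14 read 565 and 261 against 325 and 359. The first 3 varied little, whereas Mrps16 and Mrps14 each had a library well above the lowest. After median ratio scaling the fold changes of Mrps21, Mrpl41 and Mrps33 were negative.

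No mitochondrial ribosomal protein gene passed limma's moderated test on log2(FPKM + 1) after Benjamini-Hochberg adjustment over the 7823 genes whose mean reached 1 FPKM. Of the 78 genes, 76 had that mean and were tested, and Mrpl38 and Mrpl47 were not. Their adjusted p ranged from 0.559 to 0.997, and 0% of all tested genes passed. At an unadjusted p under 0.05 there were 6 of the 76 higher in knockouts and 0 lower, against 6.07% and 1.62% of all tested genes. All 6 read under 1 FPKM in both controls, so they reached the mean needed for testing only through the knockouts. The filter and their p-values, that of Mrpl39 below among them, thus draw on the same knockout values. These p-values are not independent support for a difference. The same limit holds for the genes called below when a knockout was left out.

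Without knockout 1 the test called Mrps27 higher, and without knockout 2 it called Mrpl10, Mrpl44, Mrpl47, Mrps9, Mrps25 and Mrps30 higher, all 7 under 1 FPKM in both controls. In those fits 10.2% and 18.5% of all tested genes were called, and the lone knockout was assumed to vary like the controls. Without either control no gene was called.

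The groups did not overlap in 27 of the 76 tested genes. Both knockouts lay above both controls in 18 (23.7%, against 27.8% of all tested genes) and below in 9 (11.8%, against 11.4%). Median ratio scaling turned this into 10 above and 23 below (20.6% and 20% of all tested genes), and quantile normalization gave 14 above and 12 below (19.9% and 18%). The median log2 fold change was 0.37 over the 76 tested genes and 0.94 over all tested genes. After median ratio scaling the medians were -0.28 and 0.32, and after quantile normalization 0.12 and 0.19. The order turned without knockout 1 (0.69 against 0.64) and without the filter on low means (0.38 against 0.014).

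The direction went with the level. Of the 27 genes with a mean of 100 FPKM or more, 2 lay above and 6 below, with a median of -0.34 (-0.11 for the 1177 such genes in the table, of which 19.0% lay above and 26.5% below). Of the 31 genes from 20 to 100 FPKM, 10 lay above and 2 below, with a median of 0.99 (0.78 for 1999 genes, with 27.6% above and 12.1% below). Of the 18 genes from 1 to 20 FPKM, 6 lay above and 1 below, with a median of 2.20 (1.35 for 4647 genes, with 30.1% above and 7.25% below). In 13 of these 18 genes (72.2%) over 90% of the FPKM summed over libraries came from 1 of them, against 49.4% of all genes in that range. In each range the median had the same sign as in the whole table.

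**Figure D4:**
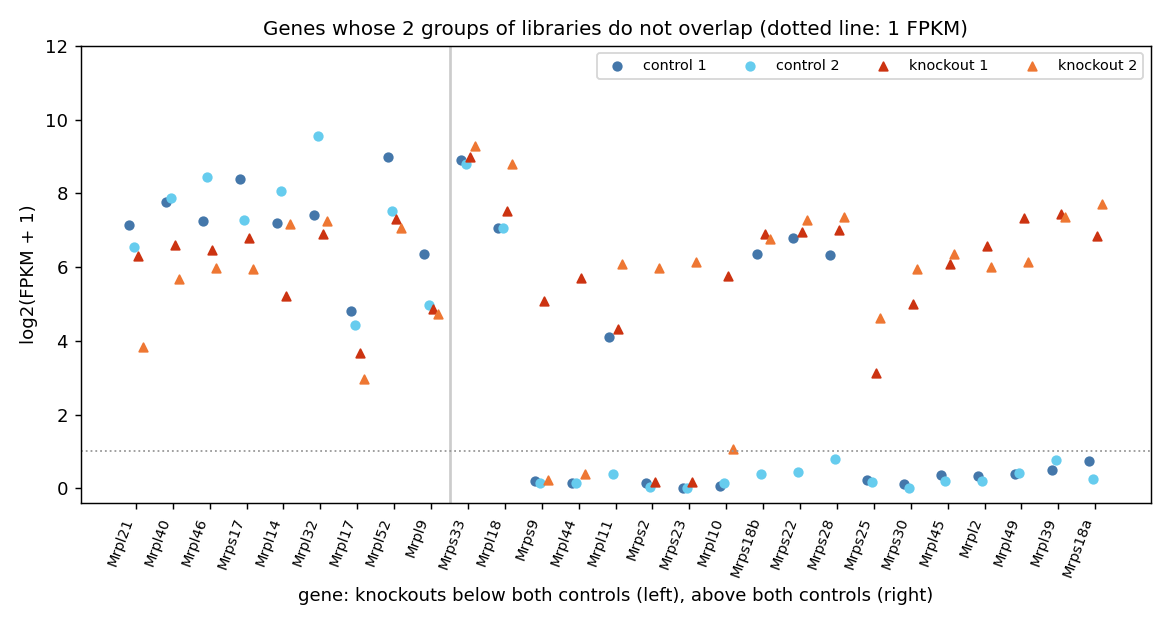
The 27 tested genes whose control and knockout libraries do not overlap, as log2(FPKM + 1) per library, with the 9 genes lower in knockouts on the left and the 18 higher on the right; the dotted line is at 1 FPKM. All 9 on the left are above the line in every library, whereas 16 of the 18 on the right have at least 1 control below it. Mrps23, Mrps2, Mrpl44 and Mrps9 on the right also have a knockout below it.

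Of the 18 genes above, 16 read under 1 FPKM in control 2 and 12 in both controls. Control 2 also had the lowest share of all genes detected, 24.2%. Mrps23, Mrps2, Mrpl44 and Mrps9 were among the 12, and in each 1 knockout was under 1 FPKM too (0.13, 0.13, 0.32 and 0.16). Mrpl39 (chromosome 16, 84718281 to 84735244), whose protein resembles a transfer RNA synthetase, read 0.41 and 0.71 FPKM in controls against 171 and 163 in knockouts. Its difference of 6.76 ± 1.39 log2 units (SE) had the smallest p of the 76 genes (limma unadjusted p = 0.00287, adjusted p = 0.559). Mrps18a (chromosome 17, 46111004 to 46128908), a large subunit protein, read 0.66 and 0.19 FPKM against 113 and 209. Knockouts were far apart from controls in both genes, and close to each other in Mrpl39.

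The next genes in this order had the same form. Mrpl49, of the mitochondrial lineage, read 0.32 and 0.33 FPKM in controls against 160 and 69.7 in knockouts. Mrpl2, a conserved core protein of the large subunit, read 0.27 and 0.15 FPKM against 95.0 and 63.6. Mrpl45, which holds the ribosome near the inner membrane at the exit of the peptide tunnel, read 0.29 and 0.14 FPKM against 67.0 and 81.6. In all 3 the controls were near 0 and the knockouts above 20 FPKM. Mrps30, of the large subunit, read 0.09 and 0 FPKM against 30.9 and 60.5, and Mrps25, of the small subunit, read 0.18 and 0.12 FPKM against 7.68 and 23.6. Mrps28, also of the small subunit, read 79.1 and 0.75 FPKM against 127 and 162, with control 2 alone near 0. Mrpl10, at the base of the stalk that binds translation factors, completed the 8 genes detected in both knockouts alone, at 0.05 and 0.10 FPKM against 53.4 and 1.10.

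Exons of 2 of these 8 genes overlap those of another gene in the table, on the opposite strand, so reads could be shared if counting ignored strand, which is not stated in the sources used here. Mrps25 shares 4590 exon bases with Nr2c2, which read 0.11, 0, 0 and 9.08 FPKM, and Mrpl49 shares 91 with Syvn1, which was at 0.02 FPKM or less. In all, 19 of the 78 genes share exon bases with another gene in the table.

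The 9 genes that read lower in both knockouts were all detected in every library. Mrpl40 (chromosome 16, 18872018 to 18876637), of the mitochondrial lineage, read 215 and 233 FPKM in controls against 95.4 and 50.0 in knockouts, a difference of -1.68 ± 0.86 log2 units (SE; limma adjusted p = 0.698). Mrpl46, also of that lineage, read 151 and 348 FPKM against 87.2 and 62.3. Mrpl21 read 140 and 93.0 FPKM against 77.7 and 13.2. In these 3 genes knockout 2 was the lowest library.

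Mrps17, an RNA-binding protein of the small subunit, read 334 and 156 FPKM in controls against 109 and 60.6 in knockouts. Mrpl32, whose maturation in the mitochondrion by a protease is needed for assembly, read 168 and 751 FPKM against 118 and 152. Mrpl52 read 504 and 184 FPKM against 156 and 133. In Mrpl32 control 2 stood far above the other libraries, and in Mrpl52 control 1 did. Mrpl14 read 147 and 267 FPKM against 36.4 and 143, with control 1 and knockout 2 nearly equal, and Mrpl17 read 27.2 and 20.7 FPKM against 11.7 and 6.77. Mrpl9 was the ninth, at 81.4 and 30.4 FPKM against 28.2 and 25.3.

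Mammals carry 3 paralogs of the bacterial protein S18, which take different places in the ribosome, and their transcripts had different patterns. Mrps18c, the form at the bacterial position in the small subunit, read 688 and 610 FPKM in controls against 315 and 818 in knockouts, with overlap. Mrps18b, at another place in the small subunit, read 81.2 and 0.30 FPKM against 118 and 107. Mrps18a, in the large subunit, was under 1 FPKM in both controls and over 100 in both knockouts, as given above. Mrps18c was therefore the highest of the 3 in every library.

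The genes whose means were nearest to the detection level were detected in 1 library each, except Mrpl19 and Mrpl38, which was in none. Mrps5 read 5.40 FPKM in control 1 and at most 0.53 elsewhere. Mrps27 and Mrpl4 reached 13.3 and 15.4 FPKM in knockout 2 and were at most 0.24 elsewhere, and Mrpl47 reached 3.29 in knockout 1 and was listed at 0 elsewhere. Mrpl19 was detected in 3 libraries, at 16.1, 0.08, 9.68 and 4.6 FPKM. In 15 of the 76 tested genes (19.7%) over 90% of the FPKM summed over libraries came from 1 of them, against 32.1% of all tested genes.

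Some genes differed widely between libraries of the same group. Mrpl1, Mrpl3 and Mrpl12 read 79.9, 99.3 and 48.1 FPKM in control 1 and 108, 87.8 and 83.2 in knockout 1, but at most 0.28 in control 2 and knockout 2. Mrps31 read 112 FPKM in control 2 and at most 0.39 in the other libraries. Mrps6, Mrps23, Mrps2 and Mrps35 read 46.3 to 73.8 FPKM in knockout 2 and at most 0.28 elsewhere. In all of these genes a control differed from the other control, or a knockout from the other knockout, by more than 40 FPKM. Of these genes, Mrps23 and Mrps2 also count among those with both knockouts above both controls, where their lower knockout read 0.13 FPKM. Among genes detected in both libraries of a pair, the larger value exceeded the smaller by a median factor of 1.87 for the pair of controls and 1.81 for the pair of knockouts, and by 1.51 to 1.76 for a control with a knockout.

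Another 5 proteins of the mitochondrial ribosome have symbols outside the naming rule. Chchd1 of the small subunit read 285 and 285 FPKM in controls against 205 and 484 in knockouts. Dap3, a GTP-binding protein of the small subunit, read 76.8 and 48.1 FPKM against 75.5 and 0.41, and Aurkaip1 read 109 and 59.9 against 56.0 and 34.2. Of the 3, only Aurkaip1 had groups that did not overlap. Ptcd3 read 0.39 and 86.5 FPKM against 0.86 and 10.4, and Gadd45gip1 of the large subunit read 36.6 and 10.4 against 6.42 and 16.7. None of the 5 passed the test (limma adjusted p of 0.698 to 0.943), and 0 lay above and 1 below (27.8% and 11.4% of all tested genes).

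In the lists of genes that serve the mitochondrial ribosome, most genes were under 1 FPKM in most libraries, as in the whole table. Of all genes, 28.8% and 24.2% were detected in controls against 38.8% and 36.1% in knockouts. For the counts of genes above and below in each list, the shares over all tested genes were 27.8% and 11.4%. Of 17 listed translation factors 15 were in the table, with 6 and 4 detected in controls against 6 and 8 in knockouts, and 2 of 12 tested lay above and 2 below. Slirp, which binds mitochondrial messenger RNA, was the highest, at 1857 and 1028 FPKM in controls against 367 and 447 in knockouts (log2 fold change -1.77 ± 0.49, SE; limma unadjusted p = 0.0108, adjusted p = 0.559). Of 26 assembly and ribosomal RNA modification genes in the table, 6 and 5 were detected against 7 and 9, with 6 of 14 tested above and 1 below. Mterf3, a regulator of mitochondrial transcription and ribosome assembly, read 115 and 76.7 FPKM against 116 and 92.0. Mtres1, a rescue factor of stalled mitochondrial ribosomes, read 168 and 0.35 FPKM against 132 and 0.46, high in 1 library of each group. Malsu1, which binds the large subunit during assembly, read 72.7 and 0.44 FPKM against 75.6 and 85.4.

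Of 17 genes in the table that load amino acids onto mitochondrial transfer RNA, the synthetases and subunits of the amidotransferase that completes glutamine transfer RNA, 2 and 3 were detected in controls against 3 and 6 in knockouts, with 1 of 8 tested above and 0 below. The 1 above was Gatc, an amidotransferase subunit, at 6.33 and 0.20 FPKM against 31.3 and 61.6. Rars2, the arginine enzyme, read 3.48 and 75.8 FPKM against 20.9 and 49.5, and Fars2, the phenylalanine enzyme, was high in control 2 alone, at 101 FPKM. Of 13 transcription and RNA processing genes, 6 and 3 were detected against 6 and 5, with 2 of 9 tested above and 1 below. Hsd17b10, a subunit of the enzyme that trims transfer RNA, read 157 and 251 FPKM in controls against 41.6 and 126 in knockouts. Tefm, the elongation factor of mitochondrial transcription, read 94.1 and 151 FPKM against 0.62 and 209, low in knockout 1 alone. Rexo2, an exonuclease of short RNA, read 33.8 and 0.44 FPKM against 218 and 142. Of 10 regulators of mitochondrial biogenesis only 4 could be tested, with 0 above and 0 below. Myc, a transcription factor of growth, was the highest, at 32.5, 11.9, 6.20 and 22 FPKM. Nrf1 was at most 0.05 FPKM in any library, Gabpa reached 17.8 FPKM in knockout 1 and was at most 0.06 elsewhere, and Yy1 read 12.9, 0.02, 6.08 and 14.9 FPKM. No gene of these 4 lists or of the biogenesis regulators passed the test.

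Cytosolic ribosomal proteins and nuclear-encoded respiratory chain subunits, the gene groups nearest in kind, were higher and more often detected. Of 82 cytosolic ribosomal protein genes, 79 and 80 were at 1 FPKM or more in controls against 80 and 80 in knockouts, and of 81 respiratory chain genes 75 and 72 against 81 and 76. The cytosolic genes summed to 67078 and 78008 FPKM against 42149 and 44803, with 1 of 80 tested above and 52 below and a median log2 fold change of -0.72. The respiratory chain genes summed to 67916 and 56369 FPKM against 43944 and 62544, with 14 of 81 above and 19 below and a median of -0.10. Over all tested genes 27.8% lay above and 11.4% below (20.6% and 20% after median ratio scaling), with a median of 0.94 as deposited. The summed FPKM of the respiratory chain and of the mitochondrial ribosome had the same order of libraries, with control 1 highest and knockout 1 lowest, and the cytosolic ribosome had another. Whether the 3 groups differ from each other was not tested.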

How the data were processed

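Amplified cDNA was made from 200 sorted cells per library, per the labels' protocols. The authors deposited FPKM values with 2 decimals, 1 for each gene in each library. The submitters' processing notes name mm10. Aligner, quantifier, annotation, strand use and read depth were not given in the sources used here, so no counting interval could be given. Each of the 4 columns bears the title of 1 sample. Coordinates came from RefSeq GRCm38.p6 (all 78 identifiers matched) and coding lengths and exon overlaps from GENCODE M21.

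Knockout was compared with control by limma 3.58.1 in R 4.3.3 on log2(FPKM + 1), with a trended prior variance, over genes whose mean reached 1 FPKM, with p-values adjusted by Benjamini-Hochberg and called under 0.05. Single values per library were compared with the exact permutation test. Figures were drawn with matplotlib 3.10.9. The code was tested on simulated data. For the fit, recovery of known changes was required only at a spread below that of most of these genes.

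The genes and lists were chosen with earlier results of these data known. Genes were named by a rule: the highest means, the largest differences without overlap in each direction, the smallest ranges, those nearest to detection, the S18 paralogs, and up to 3 per companion list with the highest mean, not all of which are printed. Other genes, among them Nr2c2, Syvn1, Tufm, Nrf1, Mrps31, Mrpl1, Mrpl3, Mrpl12, Mrpl9, Mrpl10, Mrps6, Mrps2, Mrps23 and Mrps35, were chosen after their values were seen. Alternatives were other pseudocounts, filters, scalings, variance models, detection levels, a replicate block and leaving out each library.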

Additional observations from a re-analysis of the deposited data

How the results depend on the processing

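With 2 libraries a group and unknown depth, the exact permutation test could not go below p = 0.333, and values near 0 limit every fold change. The count of genes called was 0 in each direction under each alternative, except that leaving out a library gave 0 to 6 called higher. With the replicate block it was 0 higher and 0 lower (15 higher and 20 lower among all genes). Replicate numbers are only names here: deviations from the group means correlated at 0.0166 over all tested genes and at 0.223 over the mitochondrial ribosomal protein genes.

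The knockout minus control difference in detected genes was 17.5, but 6 at a detection level of 0.1 FPKM and -2 after quantile normalization, which gives all libraries the same distribution. It was 11 to 24 when a library was left out. Genes without overlap numbered 18 above and 9 below, but 10 and 23 after median ratio scaling, and 26 to 35 and 16 to 25 when a library was left out, where 3 libraries overlap less often by construction (42.1% to 45.6% of all tested genes above and 21.3% to 27.3% below). The median difference of 0.37 was 0.08 to 1.09 when a library was left out.

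Of 459 values of named genes under alternatives, 439 kept direction and side of the threshold, 17 changed sign and 3 newly passed, each without 1 knockout. After median ratio scaling Mrpl27 stood at -0.54, Mrpl41 at -0.71, Mrps21 at -0.81 and Mrps33 at -0.59. After quantile normalization Mrpl19 stood at -0.23 and Mrpl41 at -0.031, and rescaling to the same sum gave 0.10 for Mrps16. Leaving out a library gave -1.14 to 2.84 for Mrpl19, -0.31 to 0.99 for Mrpl27, -0.028 to 0.36 for Mrpl41, -0.95 to 0.049 for Mrpl42, -0.72 to 0.39 for Mrps14, -0.54 to 0.41 for Mrps16, -1.04 to 0.34 for Mrps18c and -0.024 to 0.16 for Mrps21. The cause was not tested.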
